A study of Homo sapiens with 47 samples.

Results

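The importin beta family import receptors KPNB1, IPO4, IPO5, IPO7, IPO8, IPO9, IPO11 and IPO13 were followed through every HAP1 and HCT116 library of a study of hypomorphic *NUP58* alleles. The 8 genes were taken by their symbols from the 57507 genes of the table, each symbol stood in 1 row, and all 8 passed the filter on low values in every comparison. Values are FPKM, fragments scaled to transcript length and library size, so that levels can be set side by side between genes. The number of fragments behind a value is unknown. Because each library is a bulk sample, fewer cells that express a gene and less RNA per cell cannot be told apart.

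Import receptors of this family bind their cargo in the cytoplasm, pass the nuclear pore by contacts with the FG repeats of nucleoporins such as NUP58, and release the cargo in the nucleus when they bind RanGTP. KPNB1 (importin beta 1) mostly binds its cargo through an importin alpha adaptor, whereas the IPO proteins mostly bind theirs directly. Ribosomal proteins and histones, which dividing cells import in bulk, are carried by several members in parallel.

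The HAP1 libraries, 32 in all, came from a near-haploid line derived from a chronic myeloid leukemia, with 4 libraries for each of 8 lines: wild type (WT), controls given Cas9 but no guide RNA (EV), and the NUP58 mutated clones C1 to C6. The 15 HCT116 libraries came from a colorectal carcinoma line, with 4 labelled as the NUP58 mutated clone and 11 unedited controls, namely 2 WT, 3 EV1, 4 EV2 and 2 whose title and genotype conflict on WT or EV. Each mutant line grew from a single cell and was taken at its earliest passage, so libraries of a line do not repeat the editing. The study calls the HAP1 libraries biological replicates, no label says that they came from separate cultures, and p-values measure the spread between these libraries, which may be technical. Libraries carried the numbers 1 to 4 in their titles and are named here by line and number.

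NUP58 lay between 7.98 and 28 FPKM in the 24 libraries of the HAP1 clones and between 34.3 and 50.4 FPKM in WT. In HCT116 the library labelled clone replicate 3 held 44.7 FPKM of NUP58 against 23.3 to 25.3 FPKM in the other clone libraries, and the library labelled EV2 replicate 3 held 23.9 FPKM. Both go against their labels, so the HCT116 clone is compared with its controls with and without the libraries numbered 3. Of 5 epithelial markers, the 4 genes EPCAM, KRT8, KRT18 and CDH1 were present in every HCT116 library and VIL1 was near 0 with at most 0.136 FPKM, and the sum of the 5 was 1156 to 2011 FPKM. Of 5 blood cell markers, PTPRC, SPI1 and GATA1 were at 0 in all 32 HAP1 libraries, MPO in 31 and CD33 in 21, and their sum was at most 0.798 FPKM, although the line derives from a leukemia. In HCT116 the sum of these blood cell markers reached 2.55 FPKM, with CD33 above 0 in every library. The epithelial markers were not absent from HAP1, with a sum of 18.1 to 62.4 FPKM and KRT18 at 16.2 to 46.4. The smallest values gave a relative depth of 0.759 to 1.14 for HAP1 libraries and 0.773 to 0.986 for HCT116 libraries.

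The genes lie on 7 chromosomes (GRCh38, GENCODE release 44). KPNB1 spans 47649476 to 47685505 on the plus strand of chromosome 17, IPO5 97953658 to 98024296 on the plus strand of chromosome 13 and IPO7 9384652 to 9448127 on the plus strand of chromosome 11. IPO4 spans 24180219 to 24188869 on the minus strand of chromosome 14 and IPO8 30628988 to 30695869 on the minus strand of chromosome 12. IPO11 spans 62403972 to 62628582 on the plus strand of chromosome 5, and chromosome 1 holds IPO9 (201829149 to 201884291) and IPO13 (43946950 to 43968022), both on the plus strand. IPO4 overlaps REC8 on the opposite strand and an unnamed protein-coding gene on its own strand. IPO11 overlaps LRRC70 and an unnamed protein-coding gene, both on its own strand. IPO9 overlaps the antisense IPO9-AS1, and KPNB1, IPO5, IPO7 and IPO8 have pseudogenes in the table. Some reads of these genes are therefore of uncertain origin.

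Promoter sequences of 7 of the 8 members, all but KPNB1, were taken from RefSeq (GRCh38.p14) as the 250 bases before the annotated start. RefSeq starts differ from the GENCODE coordinates above for IPO4 and IPO5, whose windows reach into the spans given there. IPO4 and IPO7 are shown because both hold the E-box CACGTG, which stood on either strand in 6.34% of 35116 promoters of the same length. IPO5 is shown as the member that differed most between clones. It holds CCAAT, found on either strand in 32.01% of promoters, and IPO4 also holds CCGGAAG, found in 8.52%. Capitals mark these motifs, and a match is a description of letters only. The windows are chr14:24188817-24189066 on the minus strand for IPO4, chr11:9384402-9384651 on the plus strand for IPO7 and chr13:97953425-97953674 on the plus strand for IPO5, each written from 5′ to 3′.
IPO4: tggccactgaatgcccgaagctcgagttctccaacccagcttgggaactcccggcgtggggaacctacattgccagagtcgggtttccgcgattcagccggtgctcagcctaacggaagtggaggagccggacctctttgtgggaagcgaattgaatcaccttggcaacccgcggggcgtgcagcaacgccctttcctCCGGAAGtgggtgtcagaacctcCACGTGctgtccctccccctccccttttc
IPO7: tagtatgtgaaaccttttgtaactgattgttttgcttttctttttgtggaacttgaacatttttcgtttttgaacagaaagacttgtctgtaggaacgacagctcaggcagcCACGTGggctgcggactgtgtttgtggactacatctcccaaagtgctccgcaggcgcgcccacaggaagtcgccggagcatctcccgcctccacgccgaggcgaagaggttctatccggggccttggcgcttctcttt
IPO5: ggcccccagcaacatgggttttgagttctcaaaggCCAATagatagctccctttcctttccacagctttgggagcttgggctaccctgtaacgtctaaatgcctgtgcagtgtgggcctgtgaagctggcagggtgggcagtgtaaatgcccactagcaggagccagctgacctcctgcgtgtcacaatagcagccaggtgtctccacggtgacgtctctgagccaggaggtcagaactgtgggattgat
Among the other members IPO9 also held CCAAT. The GC box GGGCGG was present in 42.6% of promoters and stood in IPO9 and IPO13. The TATA box TATAAA was present in 10.7% and stood in IPO11. The motif TGATGNAA was present in 3.14% and in none of the 7 members.

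The members spanned more than 1 order of magnitude in HAP1. KPNB1 was the highest with 252 ± 60.4 FPKM and IPO5 followed with 166 ± 32.9 (SD over the 32 libraries of all HAP1 lines). KPNB1 exceeded IPO5 in 28 of the 32 libraries, whereas IPO5 exceeded IPO7 (96.1 ± 9.13 FPKM) and IPO7 exceeded IPO4 (44.9 ± 14.8 FPKM) in all 32. The lower members were closer together. IPO9 (21.9 ± 3.24 FPKM) was above IPO11 (20.2 ± 3.60) in only 18 libraries, IPO11 above IPO8 (17.1 ± 2.60) in 23, and IPO8 above IPO13 (16.1 ± 3.57) in 19, so that the order of these 4 did not hold from library to library. KPNB1 and IPO5 together carried most of the summed FPKM of the 8, with 39.2% ± 4.72 and 26.4% ± 4.78 (SD, n = 32).

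HCT116 showed the same order of the upper 5 members. KPNB1 stood at 171 ± 31.5 FPKM, IPO5 at 114 ± 21.7 and IPO7 at 75.9 ± 7.53 (SD, n = 15). KPNB1 exceeded IPO5 in all 15 libraries and IPO5 exceeded IPO7 in 14. IPO4 followed at 34.4 ± 9.95 FPKM and IPO9 at 22.1 ± 4.58. IPO8 and IPO11 were not separable, with 17.6 ± 3.14 and 16.9 ± 4.60 FPKM and IPO8 above in 8 of 15 libraries. IPO13 came last at 8.53 ± 1.25 FPKM, below IPO11 in every library.

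**Figure D1:**
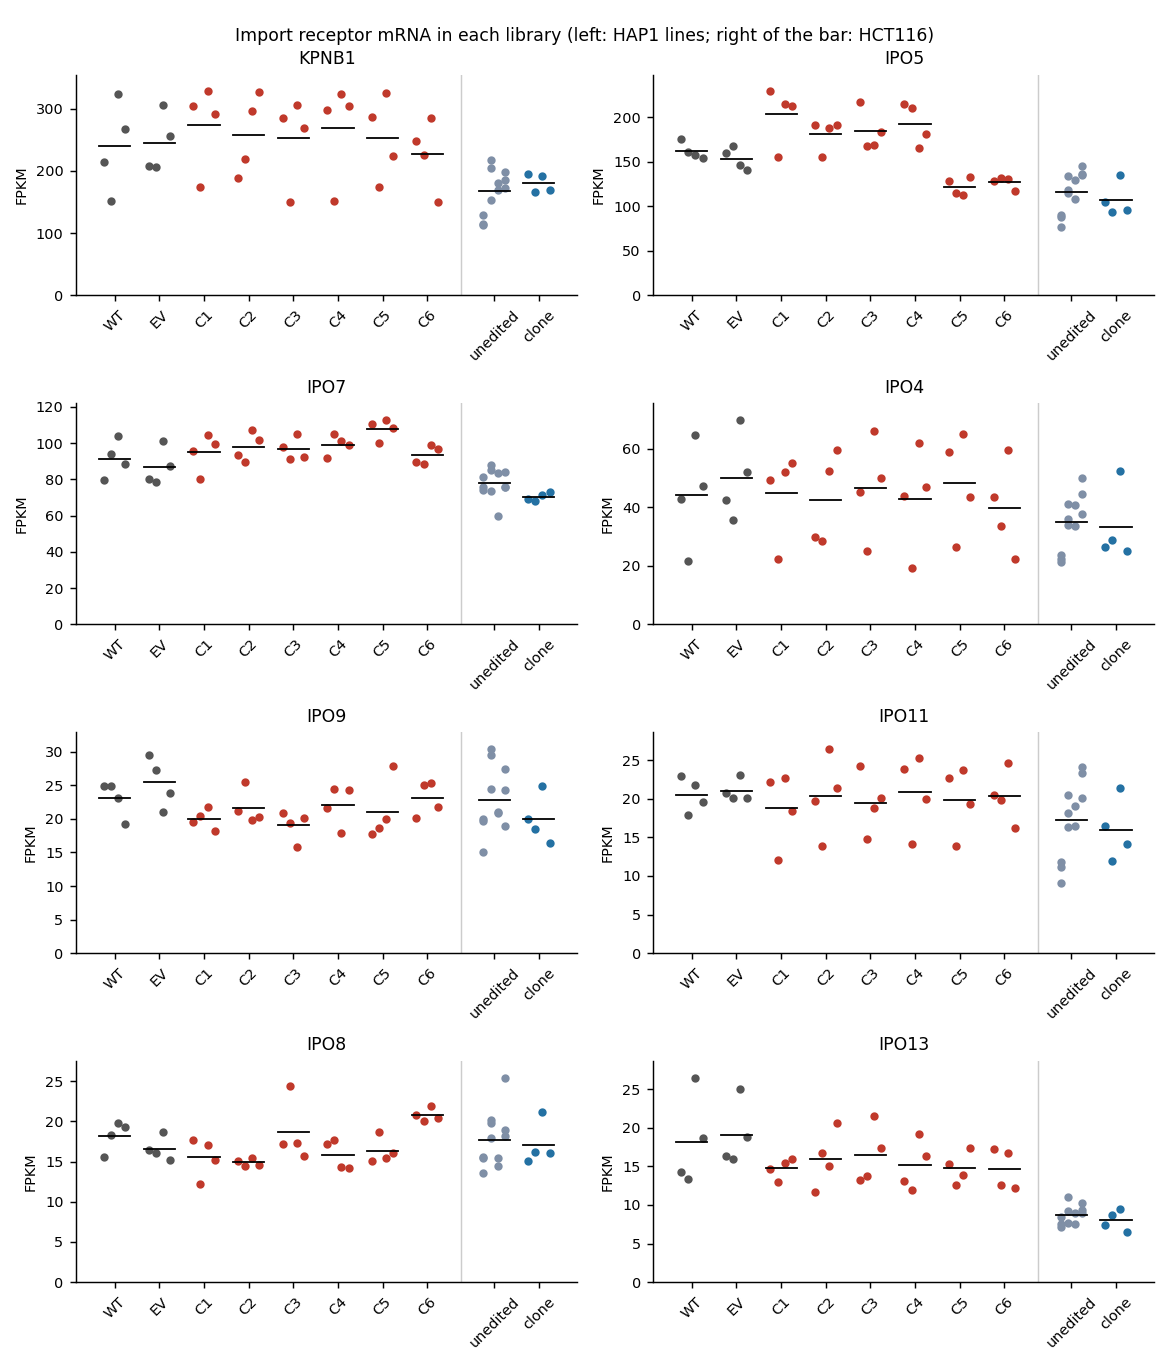
FPKM of each import receptor in every library; points are libraries (numbers 1 to 4 from left to right within a group), bars are group means, HAP1 lines stand left of the grey line and HCT116 right of it. IPO5 lies at 113 to 133 FPKM in all 8 libraries of C5 and C6, below the other 24 HAP1 libraries, while KPNB1 and IPO4 spread widely within every line.

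The first comparison asked whether the receptors differed between the NUP58 mutant clones as a group and wild-type HAP1. None of the 8 was called at an adjusted p under 0.05 in limma over 13180 genes, of which 6.60% were called, and 0 of 8 reached an unadjusted p under 0.05. The median log2 fold change of the members, mean of the 6 clones minus WT, was -0.03 against -0.02 for all genes tested, with 4 members above 0 and 4 below. The widest interval was that of IPO4, at 0.01 (95% confidence interval -0.59 to 0.61, adjusted p = 0.988 in limma), and the narrowest that of IPO7, at 0.11 (-0.04 to 0.25, adjusted p = 0.428). In this fit, which leaves the library numbers out of account, a change of IPO4 by 0.5 log2 units in either direction could therefore not be told from none. KPNB1 was at 0.10 (-0.33 to 0.54, adjusted p = 0.855 in limma), so that a rise of 0.5 could not be told from none there either. IPO13 had the lowest estimate, at -0.21 (-0.51 to 0.10, adjusted p = 0.486), which was -0.02 without WT replicate 3 and -0.33 without WT replicate 2.

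Other genes of the transport system, from lists chosen with earlier results of these data known, did contain calls in the same fit. The adaptor KPNA4 (importin alpha 3) rose by 0.54 on the log2 scale (SE 0.11, adjusted p = 0.00150 in limma), as the 1 adaptor called of 7 tested. Of the other import receptors of the family, 2 of 4 tested rose, TNPO1 by 0.51 (SE 0.14, adjusted p = 0.0241) and TNPO2 by 0.48 (SE 0.12, adjusted p = 0.0145). These 2 transportins carry RNA-binding proteins into the nucleus. Among 7 exportins XPO7 fell by 0.24 on the log2 scale (SE 0.06, adjusted p = 0.0182). Of 13 cargoes and partners of single members, the ribosomal proteins RPL12, RPL5 and RPS3A rose, by 0.42, 0.28 and 0.25 (adjusted p = 0.0352, 0.0220 and 0.0470 in limma). None of 8 Ran cycle genes and none of 10 FG nucleoporins was called in limma, with 0 and 2 at an unadjusted p under 0.05.

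Each HAP1 line is 1 clone, so the 6 clone means were also set against the means of WT and EV. IPO7, which carries ribosomal proteins and, together with KPNB1, linker histone H1, was the 1 member higher in all 6 clones than in both unedited lines, as were 11.3% of all genes. IPO9, IPO11 and IPO13 were lower in all 6 by their mean log2(FPKM + 1), as were 14.4% of all genes. Against WT, however, IPO9 in C6 was at -0.00026 and IPO11 in C4 at -0.0065, which are close to ties. In mean FPKM, IPO11 was higher in C4 (20.8) than in WT (20.5). The differences of the means were 0.14 for IPO7, -0.19 for IPO9, -0.08 for IPO11 and -0.25 for IPO13 on the log2(FPKM + 1) scale. For each of these 4 the exact two-sided permutation test gave p = 0.0714, which is the smallest p that the 28 arrangements of 8 lines allow, so that this design could not reach 0.05. Scaling by median ratios and subtracting chromosome medians each left IPO11 lower in 5 of 6 clones (exact permutation p = 0.143). For the other 4 members p lay between 0.357 and 0.929.

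The per-library values show how narrow these differences were. IPO13, which brings UBC9 and the MAGOH-Y14 pair of the exon junction complex into the nucleus and carries eIF1A out, was at 14.2, 13.4, 26.5 and 18.7 FPKM in WT replicates 1 to 4 and at 16.3, 16.0, 25.1 and 18.8 in EV. In the clones it ran from 11.7 to 21.5 FPKM. The high values of both unedited lines came from the libraries numbered 3, and every clone overlapped WT. IPO9, a receptor for histones H2A-H2B and actin, was at 24.9, 24.8, 23.2 and 19.3 FPKM in WT and at 29.5, 27.2, 21.0 and 23.9 in EV. Only C1 (18.2 to 21.8 FPKM) and C3 (15.8 to 20.9 FPKM) kept all libraries below the WT median, and both still overlapped WT. IPO7 was at 79.5, 94.0, 104 and 88.6 FPKM in WT and at 110.5, 100.04, 113 and 108 in C5, the clone with its highest mean. Against WT in C5 the log2 fold change of IPO7 was 0.24 (SE 0.10, adjusted p = 0.189 in limma), and with WT and EV together as controls it was 0.28 with an adjusted p of 0.0439.

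**Figure D2:**
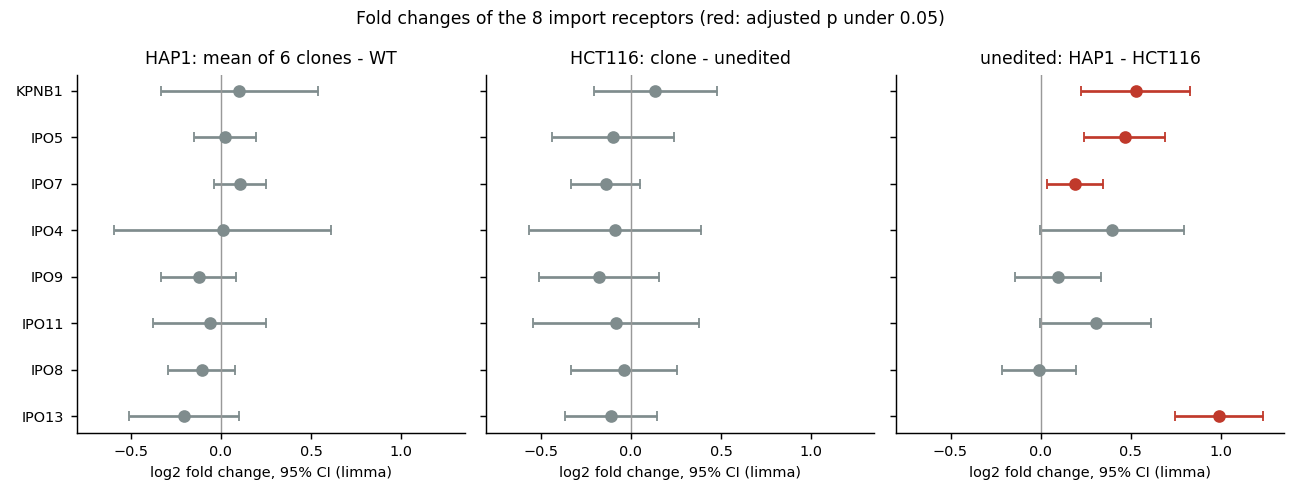
Log2 fold changes of the 8 members on the log2(FPKM + 1) scale with 95% confidence intervals from limma, for the mean of the HAP1 clones minus WT, the HCT116 clone minus unedited HCT116, and unedited HAP1 minus unedited HCT116. Red points passed an adjusted p under 0.05, which 4 members did in the third panel and none in the other panels.

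The clones were then compared with WT singly. No member had an adjusted p under 0.05 against WT in limma in C1 (0.479% of all genes called), C2 (0.732%), C3 (0.0911%) or C4 (0.160%), nor between EV and WT (0.0380%). At an unadjusted p under 0.05 stood 1 member in C1 (IPO5), 1 in C2 (IPO8) and 0 in C3, C4 and EV. Without moderation of the variances, no member was called in these lines either. C5 and C6 each had 1 member called, IPO5 in both, where 7.55% and 11.7% of all genes were called.

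IPO5 (importin 5) is a direct carrier of ribosomal proteins and histones. In WT it stood at 175.6, 161, 157 and 155 FPKM, and in EV at 160.2, 168, 146 and 140.5. In C5 it was at 128, 115, 113 and 133 FPKM and in C6 at 128, 132, 131 and 118. All 8 libraries of C5 and C6 lay below the other 24 HAP1 libraries, which held for 0.455% of all genes. This pair of clones was taken from these same IPO5 values, and the share for other pairs was not counted. The clones C1 to C4 lay on the other side, with means of 203, 182, 184 and 193 FPKM against 162 in WT, but their ranges, from 156 to 229.8 FPKM over the 16 libraries, overlapped WT.

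IPO5 fell by 0.40 on the log2 scale in C5 (SE 0.09, adjusted p = 0.0258 in limma) and by 0.35 in C6 (SE 0.08, adjusted p = 0.0271), lower than every WT library in 4 of 4 libraries of each clone. The share of all genes that lay below WT in this way in either clone was not counted. In C1 the log2 fold change was 0.31 (95% confidence interval 0.02 to 0.60, adjusted p = 0.385). Among the 6 clones IPO5 differed with a range of line means of 0.72 on the log2 scale (limma F test, adjusted p = 6.14e-06), and 2 of the 8 members and 15.8% of all genes were called there. Both calls against WT were lost without the mean-variance trend in limma (adjusted p = 0.0540 in C5 and 0.0611 in C6) and without single libraries. The adjusted p in C5 became 0.0790 without WT replicate 1, 0.0612 without WT replicate 4, and 0.0570, 0.0802 and 0.0514 without C5 replicates 1, 3 and 4, and in C6 it became 0.0791 without WT replicate 1, 0.0589 without WT replicate 4 and 0.0536 to 0.0746 without each C6 library. The fold change kept its sign, with log2 values from -0.44 to -0.37 in C5 and from -0.37 to -0.31 in C6, and the call among the clones was kept in all 32 fits that left out 1 HAP1 library.

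IPO5 shares chromosome 13 with NUP58, and in C5 and C6 its neighbours were lower as well. In C5 28 of the 31 other tested genes within 5 Mb were below WT, with a median log2 fold change of -0.68, and 13 of them were called. In C6 28 of 32 were below WT, with a median of -0.42 and 4 calls. IPO5, with -0.40 and -0.35, was thus less far below WT than the median gene around it, as 22 of 31 neighbours in C5 and 21 of 32 in C6 were lower than IPO5 itself. In C1 to C4 the medians within 5 Mb lay between -0.15 and 0.03.

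Along the chromosome C5 and C6 differed. In C5 the genes at 20 to 30 Mb were above WT, with a median of 0.46 over 46 genes, as were the 5 genes at 10 to 20 Mb (0.64), whereas in C6 these medians were -0.51 over 44 genes and -0.39 over 5. Beyond 30 Mb the other tested genes of chromosome 13 had a median of -0.68 in C5 (173 of 180 genes below WT) and of -0.52 in C6 (167 of 188), against -0.14 to -0.01 in C1 to C4 and -0.02 in EV. When the median of the tested genes of chromosome 13 was subtracted in each library (a setting added once the data had been seen), the IPO5 line means were above WT in all 6 clones, by 0.13 in C5, 0.17 in C6 and 0.18 to 0.39 in C1 to C4, and the difference between clones and unedited lines was 0.26 (exact two-sided permutation p = 0.0714, the smallest possible). How many other genes were above WT in all 6 clones in this setting was not counted. In C5 the subtracted median also covers the raised genes at 10 to 30 Mb, so it is not that of the lowered stretch alone. The part of whatever lowered the other genes of chromosome 13 in the level of IPO5 was not tested. KPNA3, an adaptor on chromosome 13, was lower in both clones. It was at -0.47 in C6 (SE 0.13, adjusted p = 0.0488 in limma) and at -0.49 in C5 (SE 0.13, adjusted p = 0.0550, not called).

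**Figure D3:**
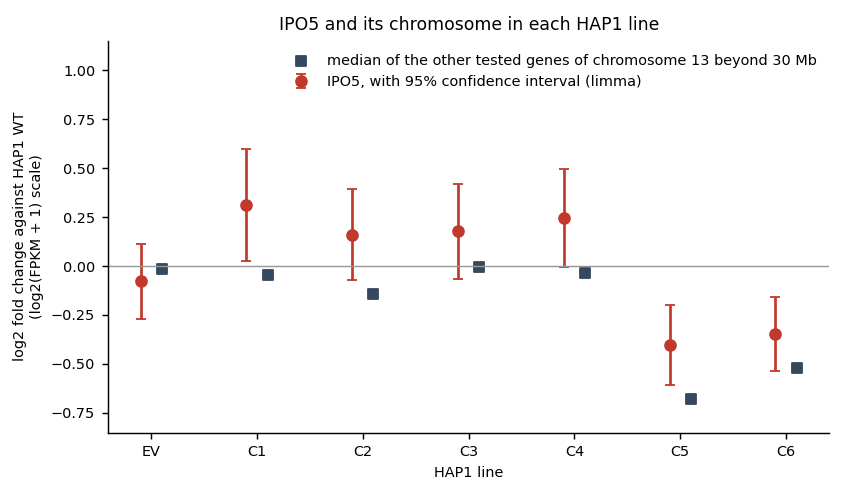
Log2 fold change of IPO5 against WT in each HAP1 line with its 95% confidence interval (red circles), and the median of the other tested genes of chromosome 13 beyond 30 Mb (squares). In C5 and C6 both lie below 0, with IPO5 at -0.40 and -0.35 and the medians at -0.68 and -0.52, and IPO5 lies above the median in all 6 clones.

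IPO8, a carrier of Argonaute proteins and close relative of IPO7, was the other member that differed among the clones (range of line means 0.45 on the log2 scale, adjusted p = 0.0358, limma F test). It was at 20.8, 20.1, 22.0 and 20.5 FPKM in C6 and at 15.1, 14.5, 15.5 and 14.6 in C2. C6 lay above all libraries of C1, C2, C4, C5, WT and EV, and C3 replicate 2, at 24.4 FPKM, was the 1 HAP1 library above it. How many other genes set C6 apart in this way was not counted. WT was at 15.5, 18.3, 19.8 and 19.4 FPKM, between both clones. Against WT the log2 fold change was 0.19 in C6 (SE 0.11, adjusted p = 0.316) and -0.27 in C2 (SE 0.12, adjusted p = 0.390). Against EV in place of WT, IPO8 was called in C6, at 0.31 (adjusted p = 0.0428 in limma). The call among clones was lost when any C6 library (adjusted p from 0.0738 to 0.108), C2 replicate 2 (0.0536), C2 replicate 4 (0.0543) or C1 replicate 4 (0.0503) was left out, and under scaling by median ratios (0.0635). IPO8 lies on chromosome 12, where the median of the other tested genes in C6 was 0.01, and 0.05 within 5 Mb.

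In C5 and C6 the lists held further calls. KPNA4 rose in both, by 0.65 and 0.71 on the log2 scale (adjusted p = 0.0209 and 0.0102 in limma), as did the nucleoporin NUP35, by 0.55 and 0.47 (adjusted p = 0.0204 and 0.0384). KPNA5, TNPO2 and the IPO7 cargo RPL5 rose in C5, by 0.88, 0.76 and 0.38 (adjusted p = 0.0277, 0.0114 and 0.0390). In C6, TNPO1 rose by 0.63 (adjusted p = 0.0248) and the basket nucleoporin NUP153, which anchors import complexes at the nuclear side, fell by 0.95 on the log2 scale (adjusted p = 0.00155). Of the Ran cycle and exportin lists none was called in either clone in limma, with 1 Ran cycle gene in each clone and 2 and 4 exportins at an unadjusted p under 0.05. Among the 6 clones KPNA3, KPNA5, XPO4 and NUP153 differed, with ranges of 0.68, 0.72, 1.00 and 0.92 (adjusted p from 5.69e-05 to 0.0251), and XPO4 lies between 20 and 30 Mb of chromosome 13, at 0.53 in C5 (adjusted p = 0.0888 in limma) and -0.48 in C6 (adjusted p = 0.0961).

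Within a line, the receptors fell into members that varied widely between libraries and members that did not. IPO4, which imports histones H3-H4, varied most, with the highest library of a line 1.96 to 3.22 times the lowest. KPNB1 followed with 1.48 to 2.14 times, while the same ratio was 1.12 to 1.48 for IPO5 and 1.12 to 1.30 for IPO7. In WT, KPNB1 was at 215, 151, 324 and 267 FPKM and IPO4 at 42.8, 21.7, 64.7 and 47.2. C4 showed the same order, with KPNB1 at 298, 152, 324 and 304 FPKM and IPO4 at 43.8, 19.2, 61.9 and 46.7. Libraries numbered 2 were low and those numbered 3 high in both lines.

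Over all 8 HAP1 lines IPO4 was below its line mean in 8 of 8 libraries numbered 2, by 0.68 on average on the log2 scale (mean deviation -0.68), and above it in 8 of 8 libraries numbered 3, at 0.52. KPNB1 was below in 7 of 8 and above in 8 of 8, at -0.45 and 0.35. IPO11, a carrier of the ubiquitin-conjugating enzyme UBE2E3 and of RPL12, was below in 8 of 8 libraries numbered 2, at -0.33. IPO5 was above its line mean in 8 of 8 libraries numbered 1, at 0.12, and IPO8 and IPO9 had mean deviations between -0.08 and 0.08 at every number. Over all tested genes, deviations of the clone mean and of WT had an r of 0.72 at number 2 and 0.58 at number 3. Shared shifts were thus not limited to these receptors, and how many genes shifted in every library of a number was not counted. The number is that of the titles, and whether it marks a day or a batch is not given in the sources used here.

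ASNS (asparagine synthetase), whose transcription rises when amino acids run short, moved with these receptors in the opposite direction. In WT it was at 170.5, 251, 45.1 and 55.3 FPKM, and in C4 at 89.2, 434, 32.5 and 37.5. High ASNS and low KPNB1 or IPO4 came from the same libraries. Over deviations from the line means in the 32 HAP1 libraries, Pearson's r with ASNS was -0.92 for IPO4 and -0.89 for KPNB1, with Spearman's rho of -0.91 and -0.84 (permutation within lines, p = 1e-05 for each, the smallest that 100000 permutations give, adjusted p = 8e-05 over 16 relations). It was -0.74 for IPO11 (rho -0.60, permutation p = 0.00013 and 0.00222, adjusted 0.00052 and 0.00888), -0.72 for IPO13 (rho -0.76, p = 7e-05 and 4e-05, adjusted 0.000373 and 0.000213) and -0.57 for IPO7 (rho -0.57, p = 0.00378 and 0.00398, adjusted 0.0121 and 0.0127).

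For the other 3 members the relation with ASNS did not pass adjustment. IPO9 had an r of 0.41 (rho 0.40, permutation p = 0.0307 and 0.0410, adjusted 0.0701 and 0.103), IPO5 of -0.12 (rho 0.04, permutation p = 0.615 and 0.851, adjusted 0.656 and 0.851) and IPO8 of 0.04 (rho 0.10, permutation p = 0.837 and 0.620, adjusted 0.837 and 0.708). Without the 2 libraries farthest in ASNS, r was -0.90 for IPO4, -0.85 for KPNB1, -0.63 for IPO11, -0.73 for IPO13, -0.62 for IPO7, 0.40 for IPO9, 0.00 for IPO5 and 0.16 for IPO8. Same-numbered libraries vary together, so the 32 are not fully independent. After the mean of each number was removed as well, r remained at -0.87 for IPO4, -0.81 for KPNB1, -0.66 for IPO11 and -0.46 for IPO13, and dropped to -0.09 for IPO7. How many other genes followed ASNS as closely was not counted. The part of ASNS, or of the numbering it moved with, in these levels was not tested.

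The genes whose deviations followed each member most closely, out of 13179, were named for all 8. For KPNB1 these were TSR1, TOP1 and POP1 (r from 0.97 to 0.98 over the 32 libraries), for IPO4 PES1, PRMT5 and CCT6A (0.98 each) and for IPO11 PHF19, PAICS and TOMM6 (0.95 each). IPO13 was like SLC29A1 and DNAJB11 (0.89 each), IPO5 like ATP10D, CTSC and TIPARP (0.86 to 0.87) and IPO7 like GUF1, PNN and SRPRA (0.79 to 0.82). The likeness was lowest for IPO9 (TBXAS1, WRB and FAM13A, 0.73 to 0.75) and IPO8 (POLM, THOC2 and VIM-AS1, 0.66 to 0.69). Between members, KPNB1 and IPO4 had an r of 0.97 and KPNB1 and IPO11 of 0.81, while KPNB1 and IPO5 had 0.17. These r share libraries and are descriptions.

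The HCT116 clone was compared with unedited HCT116 to ask whether the same receptors differed in a second cell line with mutated NUP58. None of the 8 members was called in limma, nor was any of 12960 genes (0% called, while 10.4% had an unadjusted p under 0.05). Of the 8 members 0 had an unadjusted p under 0.05 in limma and 1 without moderation of the variances, where none was called after adjustment. The median log2 fold change of the members was -0.09 against 0.00 for all genes, with 7 of 8 below 0. Without the libraries numbered 3, 769 of 13000 genes were called (5.92%), 471 higher and 298 lower in the clone. Of the members again 0 were called and 0 had an unadjusted p under 0.05 in limma, and their median was -0.20 against 0.02 for all genes, with 7 of 8 below 0.

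IPO7 came closest. It was at 69.2, 68.2, 71.1 and 72.8 FPKM in the libraries labelled clone, and in the controls at 75.7 and 73.4 in WT, 81.2, 85.1 and 83.8 in EV1, 74.3, 88.2, 60 and 84.3 in EV2, and 76.0 and 75.9 in the controls with conflicting labels. All clone libraries lay below all controls but 1, the library labelled EV2 replicate 3, whose NUP58 was at the level of the clone. The library labelled clone replicate 3, whose NUP58 was at the level of the controls (44.7 FPKM), was nevertheless low in IPO7, at 71.1 FPKM. NUP58 and IPO7 thus did not place both doubtful libraries alike. With all libraries the log2 difference was -0.14 (SE 0.09, adjusted p = 0.595 in limma; exact two-sided permutation p = 0.110 over 1365 arrangements). Without the libraries numbered 3 it was -0.17 with no overlap, as in 3.88% of 13000 genes (exact two-sided permutation p = 0.00909 over 220 arrangements, the lowest of the 8 members and not adjusted), but the adjusted p in limma was 0.242. In the HAP1 clones IPO7 had lain above WT. With the libraries numbered 3 kept, the difference between both effects was 0.25 on the log2 scale (SE 0.11, unadjusted p = 0.0264, adjusted p = 0.268 in limma). No member was called for such a difference in limma, where 1.80% of 13629 genes were called. IPO7 was the 1 member at an unadjusted p under 0.05 there.

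**Figure D4:**
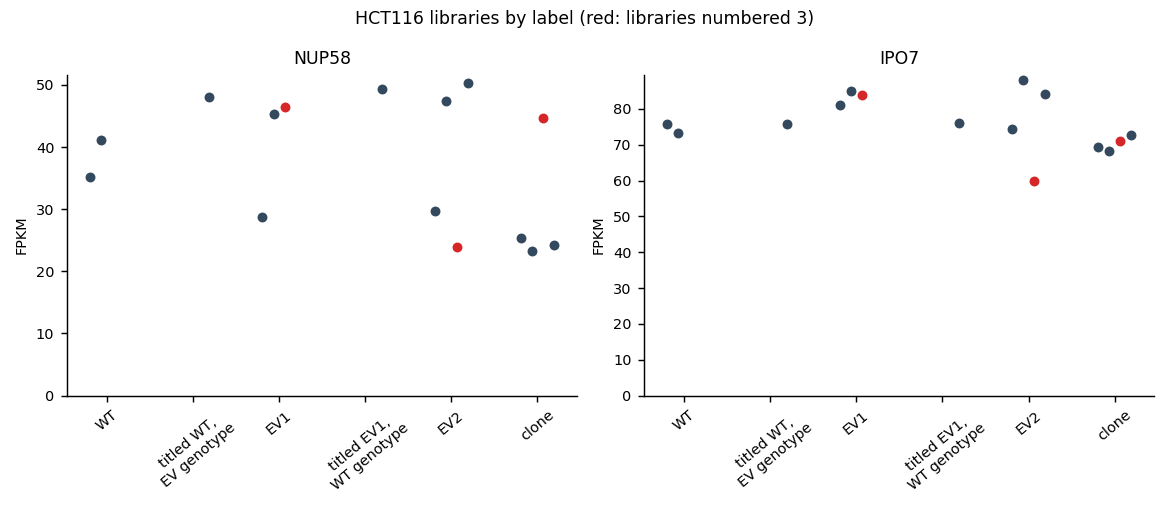
FPKM of NUP58 (left) and IPO7 (right) in the 15 HCT116 libraries by label, with libraries numbered 3 in red. The library labelled clone replicate 3 has 44.7 FPKM of NUP58 and that labelled EV2 replicate 3 has 23.9, and the latter is also the lowest for IPO7 at 60.

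The other members overlapped widely in HCT116. KPNB1 was at 194, 165, 191 and 169 FPKM in the libraries labelled clone and ran from 113 to 218 FPKM over the controls, with a median of 173. IPO4 was at 26.4, 28.9, 52.4 and 25.0 FPKM in the libraries labelled clone, of which replicate 3 was the highest HCT116 library of all. IPO9 was at 20.02, 18.5, 24.9 and 16.4 FPKM against 15.01 to 30.4. For IPO4 and IPO9 the replicate that stood out was the one whose NUP58 went against its label, and without the libraries numbered 3 their log2 differences were -0.30 and -0.31 (exact two-sided permutation p = 0.282 and 0.191) in place of -0.09 and -0.18 (0.731 and 0.299). That library was also the highest labelled clone for IPO5 (135 FPKM), IPO8 (21.2), IPO11 (21.4) and IPO13 (9.47), but not for KPNB1 or IPO7. With all libraries the exact two-sided permutation p was between 0.336 and 0.813 for KPNB1, IPO5, IPO8, IPO11 and IPO13. Without the libraries numbered 3 the log2 difference moved from -0.10 to -0.20 for IPO5, from -0.04 to -0.19 for IPO8, from -0.08 to -0.21 for IPO11 and from -0.11 to -0.20 for IPO13, with exact permutation p of 0.345, 0.236, 0.527 and 0.145. For KPNB1 it was 0.13 in both (exact permutation p = 0.485 and 0.627).

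ASNS varied in HCT116 as well, from 42.6 to 349.5 FPKM, and lay at 42.6 to 75.3 FPKM in the libraries labelled clone. Within clone and controls its r with the members was negative for 7 of 8, IPO7 being the exception at 0.22, and strongest for IPO9 (-0.61, rho -0.53, permutation p = 0.0242 and 0.0538, n = 15) and KPNB1 (-0.60, rho -0.51, permutation p = 0.0417 and 0.0753). No HCT116 relation passed adjustment, with adjusted values from 0.0646 to 0.799.

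The unedited cell lines were compared to place these values beside a difference between cell types. In limma 4 of 8 members were higher in HAP1 (WT and EV, 8 libraries) than in unedited HCT116 (11 libraries), in a comparison where 68.0% of 13538 genes were called. The median log2 difference was 0.35 for the members and 0.10 for all genes. Scaling by median ratios removed this shift of all genes (by -0.10), and member by member values relative to it are accordingly lower.

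IPO13 differed most. It was at 13.4 to 26.5 FPKM in unedited HAP1 and at 7.09 to 11 in unedited HCT116, a log2 difference of 0.99 (SE 0.12, adjusted p = 1.44e-07 in limma). It was the 1 member higher in every HAP1 library than in every HCT116 library, as were 18.5% of all genes. KPNB1 was higher by 0.53 (SE 0.15, adjusted p = 0.00318), with 151 to 324 FPKM against 113 to 218, and IPO5 by 0.47 (SE 0.11, adjusted p = 0.000657), with 140.5 to 175.6 FPKM against 76.3 to 145. Both ranges overlapped. With libraries labelled WT only, the difference was 0.71 for KPNB1 (adjusted p = 0.0784) and 0.29 for IPO7 (adjusted p = 0.161). IPO7 was higher by 0.19 (SE 0.07, adjusted p = 0.0284), but under scaling by median ratios by 0.08 with an adjusted p of 0.344, and its adjusted p was 0.0683 without WT replicate 3 and 0.0652 without EV replicate 3 of HAP1.

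IPO4 and IPO11 had differences of 0.40 and 0.30 (adjusted p = 0.0748 and 0.0735 in limma) that passed under some settings. Both passed when scaled to TPM (adjusted p = 0.0466 and 0.0433). IPO9, at 0.10 (95% confidence interval -0.14 to 0.33), and IPO8, at -0.01 (-0.22 to 0.20), did not pass. With ASNS as a covariate, added after seeing the data, the difference of IPO4 was 0.17 (adjusted p = 0.325), that of IPO7 0.18 (0.0505), that of KPNB1 0.34 (0.00690) and that of IPO13 0.88 (1.86e-07).

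In the other lists, counts are to be read against the 68.0% of all genes called, of which 5353 were higher and 3854 lower in HAP1. Of the exportins 5 of 7 were called and all 5 were higher in HAP1, by 0.39 for XPO6 to 0.79 for XPO7. In the Ran cycle 6 of 8 were called and higher, from RAN itself at 0.27 to RANGRF at 0.88. Of 5 other import receptors TNPO2, TNPO3 and RANBP6 were higher, by 0.86, 0.49 and 0.44, and RANBP17 was lower (log2 difference -2.23, adjusted p = 1.11e-13). The adaptor list held 2 calls in opposite directions, KPNA6 (-0.40) and SNUPN (0.78), and 6 of 10 FG nucleoporins and 7 of 13 cargoes were called, 5 of each higher. The largest of these was UBE2E3, a cargo of IPO11, at 2.92 (SE 0.10, adjusted p = 8.54e-17).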

How the data were processed

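RNA was sequenced from 47 libraries. Per the submitters' processing notes and the study's methods, reads were checked with FastQC, trimmed of adaptors, aligned to GRCh38 with STAR and quantified with RSEM, whose versions are not given in the sources used here. The authors deposited FPKM per gene, and counts were not used here. Groups were taken from the sample labels.

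FPKM were tested as log2(FPKM + 1), a scale that understates changes of low genes, over genes with a mean of at least 1 FPKM in the libraries compared, with limma 3.58.1 (R 4.3.3, eBayes with trend, Benjamini-Hochberg adjustment over all genes tested). Single values were tested by exact permutation of lines or libraries, and relations with ASNS by 100000 permutations within lines (Python 3.11.15, scipy 1.17.1, numpy 2.4.6, pandas 2.3.3). Figures were drawn with matplotlib 3.10.9. Fits were tested on simulated data with known changes. There each gene varied independently in each library, without the shifts that same-numbered libraries share in the data.

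The members and the gene lists were chosen with earlier results of these data known. Named genes were the 8 members, NUP58, ASNS, the list genes past the threshold, and for each member the 3 genes with the highest r, of which 1 for IPO13 is not reported here. Alternatives changed the pseudocount to 0.1, the filter, the scaling (TPM, median ratios), the trend, the controls, the replicate block and single libraries. ASNS as a covariate, the relation with ASNS and the chromosome medians were chosen after seeing the data.

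Same-numbered libraries of a HAP1 line and WT deviated together (r over 0.1) in all pairs of 5 of 7 lines, and in 24 of 28 pairs (r from -0.37 to 0.75). C5 and C6 had pairs below that limit.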

Additional observations from a re-analysis of the deposited data

Results flagged for a closer look

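Among 80 groups of 4 libraries, counted for each member and line, 3 held a library far from the others, where chance gives about 1 in 20. KPNB1 in C4 was at 152.2 FPKM in replicate 2 and at 298.4 to 323.9 in the others, and that library also had the highest ASNS of the clone. IPO5 in C2 was at 155.6 FPKM in replicate 2 against 188.6 to 191.6. IPO4 was at 52.42 FPKM in the HCT116 library labelled clone replicate 3 against 24.96 to 28.93 in the other libraries labelled clone, and the NUP58 level of that library goes against its label.

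The clones differed from each other in IPO5, with a range of line means of 0.7163 on the log2 scale, and in IPO8, with a range of 0.4546 (limma F test, adjusted p = 6.14e-06 and 0.0358). Other genes of chromosome 13 were lower in the clones with low IPO5, and their part in the level of IPO5 was not tested.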

How the results depend on the processing

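Over the values of single members, of which only IPO5 was counted in C5 and C6, 828 alternatives kept direction and side of the threshold, 42 reversed, 28 lost and 8 gained a call. The causes were not tested. With C1, C2, C3 or C4 left out, the mean of the clones for IPO5 became -0.034, -0.0035, -0.00704 and -0.020. For IPO4 it became -0.0052 without C3, -0.017 without C5, -0.023 with ASNS as a covariate, -0.22 against EV and -0.10 against WT and EV, and for IPO8 0.020 against EV. In HCT116, KPNB1 was at -0.14 with ASNS as a covariate and IPO4 at 0.016 without the controls with conflicting labels. Between cell lines IPO8 was at 0.060 in TPM and 0.20 with WT only, and IPO9 at -0.012 with median ratios and -0.091 with WT only.

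Without single libraries, the mean of the clones ran from -0.10 to 0.26 for KPNB1 and from -0.29 to 0.23 for IPO4, set by WT replicates 2 and 3. In HCT116 it ran from -0.32 to 0.023 for IPO4, -0.14 to 0.014 for IPO8 and -0.22 to 0.040 for IPO11, and between cell lines from -0.044 to 0.042 for IPO8. Members called ran from 0 to 1 in C5, 0 to 1 in C6 and 1 to 2 among clones.

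Without the limma trend 0 members were called in C5 and 0 in C6. With WT and EV as controls 2 were called in C5 (IPO5 and IPO7), and with EV as control 2 in C6 (IPO5 and IPO8). Median ratios left 1 among clones, and WT only left 2 between cell lines. In HCT116 the permutation tests passed for 1 member without the libraries numbered 3 and for 0 with them.

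With the replicate number as a block, 0 members were called in C6 (IPO5 adjusted p = 0.0596 in limma). Not every pair of C6 met the limit for pairing. Between cell lines IPO4 and IPO11 passed with the block (adjusted p = 0.0359 and 0.0384). The mean of the clones deviated with WT of the same number with r of 0.36, 0.72, 0.58 and 0.37. The unknown depth limits precision for the low members.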
